A study of Mus musculus with 6 samples.

Results

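The clustered replication-dependent histone genes supply most of the histone protein that packs newly copied DNA. They were taken as every row of the gene count table whose symbol begins with Hist1h, Hist2h, Hist3h or Hist4h, which gave 70 of 49492 genes. All 70 were found in the GENCODE M21 annotation of the mouse genome build GRCm38 (mm10), 67 as protein-coding genes and 3 as pseudogenes. By histone there were 6 H1, 20 H2A, 19 H2B, 12 H3 and 13 H4 genes. The Hist1 cluster on chromosome 13 held 56 genes, 24 of them in chr13:21715763-22043676 and 31 in chr13:23531050-23934851, and the pseudogene Hist1h2al lay farther along that chromosome. The Hist2 cluster (chr3:96219865-96270132) held 10 genes, the Hist3 cluster (chr11:58948920-58956830) held 3, and Hist4h4 stood alone on chromosome 6.

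RNA was measured in mouse palatal shelves, the paired outgrowths that form the secondary palate, at stage E14.5. The 3 control libraries were PRMT1 fl/fl and the 3 deletion libraries were Wnt1-Cre; PRMT1 fl/fl, so both groups carried the floxed Prmt1 alleles and only the deletion group carried Cre. All were labelled C57BL. Wnt1-Cre acts in the neural crest and its descendants, which make most of the palatal mesenchyme. The epithelium, skeletal muscle, vessel endothelium and blood of the shelf keep an intact Prmt1. No group with Cre and unfloxed Prmt1 was analysed here. The libraries are named by the numbers and prefixes in the table's headers: cont212, cont213 and cont220 for control, and mut208, mut211 and mut221 for deletion. Whether each came from its own embryo is not in the labels, and the p-values rest on the spread among these 6 libraries, which may be technical. Each library held 44919889 to 50022829 estimated counts.

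Prmt1, the arginine methyltransferase targeted by the deletion, was at 258, 250 and 246 counts per 1000000 (CPM, scaled by edgeR's TMM factors) in controls cont212, cont213 and cont220. It was at 201, 206 and 217 CPM in deletion libraries mut208, mut211 and mut221, or -0.27 ± 0.05 on the log2 scale (SE, adjusted p = 0.0113 in edgeR). Its direction held under 14 of 14 alternatives and its call under 9, being lost with sex as a covariate, without cont212 and cont213 together, and without any one of cont213, mut208 or mut211 (adjusted p from 0.0567 to 0.292). Libraries cont212 and cont213 had Xist at 15.5 and 15.97 CPM and Y-linked genes at 247 and 254 CPM. The other 4 libraries had Xist between 3384 and 4487 CPM, so cont220 was the 1 control of the same sex as the deletion libraries. Sex was not the only measure that set cont212 and cont213 apart: their ratio of the embryonic globin Hbb-y to the adult globins Hbb-bs and Hbb-bt was 0.0946 and 0.0779, against 0.200 in cont220 and 0.191 to 0.320 in the deletion libraries. That ratio falls as embryos mature. In the fits below with sex as a covariate or without these 2 controls, sex and whatever else set them apart cannot be told apart. Skeletal muscle markers, of which 4 of 6 (Myog, Myod1, Actc1 and Tnnt1) were called higher, summed to 401 to 454 CPM in control and 705 to 1168 CPM in deletion libraries. Epithelial markers, of which 3 of 6 (Krt14, Epcam and Cdh1) were called lower, summed to 942 to 1007 and 579 to 807 CPM. Over all genes tested, edgeR called 3.65% higher and 3.37% lower. Of 12 erythroid markers, Epor and Hbb-y among them, 0 were called in edgeR or DESeq2 and 0 had an unadjusted p under 0.05, and their sums were 3651 to 4861 in control and 2114 to 4710 in deletion. Of 8 palate mesenchyme markers, Osr2 and Shox2 among them, 0 were called in edgeR or DESeq2 and 1 had an unadjusted p under 0.05. Over all genes, 22.5% had such an edgeR p and DESeq2 called 11.2%. The part of these cell types, of the globin ratio and of sex in the histone values was not tested beyond the fits given beside each result. A bulk library cannot separate fewer cells of a type from less RNA per cell.

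The genes of these clusters are known for 3 features. They are transcribed mainly in S phase, when the nuclear protein NPAT drives them in histone locus bodies. Most have no introns, and here 65 of 70 had a single exon in every annotated transcript. Their mRNAs end in a short stem-loop in place of a poly(A) tail: the stem-loop binding protein SLBP and the U7 small nuclear RNA direct the cut behind it. A library made from poly(A) RNA, as here, therefore misses most of this mRNA and samples the fraction that does have a tail, which read-through to a downstream signal can produce. PRMT1 is known to methylate an arginine in the tail of histone H4, but the present data hold RNA alone.

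The stem-loop is shown because mRNA cut behind it has no poly(A) tail. Whether the motif goes with the level of a gene in these libraries was not tested. A search on the sense strand within 100 bases after the stop codon, for an arm GGNNCT, a loop TNTN and an arm AGNNCC in direct succession (N is any base), found it in 46 of the 67 genes with a stop codon. It began 22 to 59 bases after the stop codon. Among genes with at least 100 annotated bases behind the stop codon, 26 of 31 histone genes (83.9%) and 6 of 20165 other genes (0.0298%) held it, H2afx among the 6. The 46 copies had 8 forms, each with a perfectly paired stem. They are given below as DNA, 5′ to 3′, from the GENCODE transcripts, with the 6-base arms of the stem in capitals and the 4-base loop in lower case.
Form in 26 H1, H2A, H2B and H3 genes, Hist1h1c, Hist3h2a and Hist3h2ba among them: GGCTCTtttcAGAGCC
Form in 6 genes, Hist1h3c and Hist1h2bk among them: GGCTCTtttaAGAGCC
Form in Hist1h3g: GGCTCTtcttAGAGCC
Form in Hist2h2ac: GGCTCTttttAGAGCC
Form in 7 H4 genes, Hist4h4 among them: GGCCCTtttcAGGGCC
Form in 2 H4 genes, Hist1h4i and Hist2h4: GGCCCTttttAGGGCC
Form in 2 H4 genes, Hist1h4b and Hist1h4j: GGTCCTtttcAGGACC
Form in Hist1h4a: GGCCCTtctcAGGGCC

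The stem separated H4 from the other histones. All 12 H4 genes with the motif had GGCCCT or GGTCCT as the first arm, and all 34 H1, H2A, H2B and H3 genes with the motif had GGCTCT. Of the 21 genes with a stop codon and no match, 17 were annotated for fewer than 60 bases beyond it, so the annotated sequence may have ended before the place of the motif. The other 4, Hist1h2bc, Hist1h2bq, Hist1h2br and Hist2h2be, are H2B genes with long annotated ends.

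Promoters were matched in RefSeq (GRCm38.p6, 250 bases before to 50 after the start) for 62 of the 70 genes. On either strand, CCAAT, the site of the factor NF-Y, stood in 53 of 62 (85.5%) against 37.9% of 27025 promoters. It was in all 50 promoters of H1, H2A, H2B and H3 genes and in 3 of 12 H4 promoters. TATAAA stood in 35 of 62 (56.5%) against 14.2%. The octamer ATTTGCAT, bound by OCT1, stood in 13 of 62 (21.0%) against 1.75%, and these were 7 of 18 H2A and 6 of 16 H2B promoters. The windows are not independent, since 20 of the 34 H2A and H2B windows overlapped that of a neighbouring gene. None of these motifs contains another, and a match is a description of letters, not of binding.

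The 150 bases before the start of 4 genes of high level are shown as examples: an H1 gene, the H2A and H2B genes of Hist3, and an H4 gene with no CCAAT. No H3 promoter is shown, and whether these sequences go with any result was not tested. They run 5′ to 3′ on the gene's strand, with any match to CCAAT or TATAAA or ATTTGCAT on either strand in capitals.
Hist1h1c, chr13:23738657-23738806, plus strand: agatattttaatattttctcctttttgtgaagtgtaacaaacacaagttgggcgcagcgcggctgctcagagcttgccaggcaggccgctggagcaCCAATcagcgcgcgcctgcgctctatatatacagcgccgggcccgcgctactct
Hist3h2a, chr11:58954535-58954684, plus strand: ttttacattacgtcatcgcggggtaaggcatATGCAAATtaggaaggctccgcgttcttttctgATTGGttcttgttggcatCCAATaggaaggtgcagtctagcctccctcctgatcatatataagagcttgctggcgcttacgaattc
Hist3h2ba, chr11:58948761-58948910, plus strand: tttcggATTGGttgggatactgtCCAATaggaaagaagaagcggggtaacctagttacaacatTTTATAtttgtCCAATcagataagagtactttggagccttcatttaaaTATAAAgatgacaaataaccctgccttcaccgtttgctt
Hist1h4i, chr13:22041363-22041512, minus strand: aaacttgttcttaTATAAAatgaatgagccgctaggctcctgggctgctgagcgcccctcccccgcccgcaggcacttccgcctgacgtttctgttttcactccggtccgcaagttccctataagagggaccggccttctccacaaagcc
Hist3h2ba had 3 CCAAT and 2 TATAAA matches in this stretch, Hist3h2a had 2 CCAAT matches and the octamer, Hist1h1c had 1 CCAAT match, and Hist1h4i had 1 TATAAA match far from the start.

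Little histone RNA was in the libraries. The 70 genes together summed to 122, 104 and 108 CPM in controls cont212, cont213 and cont220 and to 108, 101 and 110 CPM in deletion libraries mut208, mut211 and mut221. The counts of Hist1h2aa and Hist1h2al were 0 in every library, and 3 more genes (Hist1h2ao, Hist1h2ba and Hist2h3c1) stayed under 1 count throughout. Of the 50-base stretches of Hist1h2ao, 93.5% also lie in Hist1h2ap, and 100% of those of Hist2h3c1 lie in Gm20634. The values of Hist1h2ao and Hist2h3c1 therefore do not show that their RNA was absent. Hist1h2aa, Hist1h2ba and Hist1h1t are known as testis histones, and their sum was 0.0400 to 0.268 CPM over the 6 libraries. A level of 1 CPM was reached in every library by 10 genes: Hist1h1c, Hist1h2ag, Hist1h2bc, Hist1h2be, Hist1h2bq, Hist1h3c, Hist1h4i, Hist2h2be, Hist3h2a and Hist3h2ba.

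Most of the counts lay in a few genes with an annotated tail signal. A first set of 16 genes had at least 100 annotated bases after the stop codon and a tail signal (AATAAA or ATTAAA) in the last 50 bases of a transcript. These 16 held 72.4% of the summed histone CPM, and 7 of them reached 1 CPM in every library. The 15 genes with a long end and no such signal held 16.8%, with 2 genes at 1 CPM throughout. The 36 genes with a short or no annotated end held 10.5%, with 1 gene, Hist1h2ag, at 1 CPM throughout. Per kilobase of annotated exon the medians were closer: 0.571, 0.380 and 0.386 CPM per kb in the 3 sets. The first set therefore stood apart by a few genes and not by its median. In Hist1h1c the annotated transcript ran 840 bases past the stem-loop and in Hist3h2a 1643 bases, stretches that the mRNA cut at the stem-loop lacks.

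**Figure D1:**
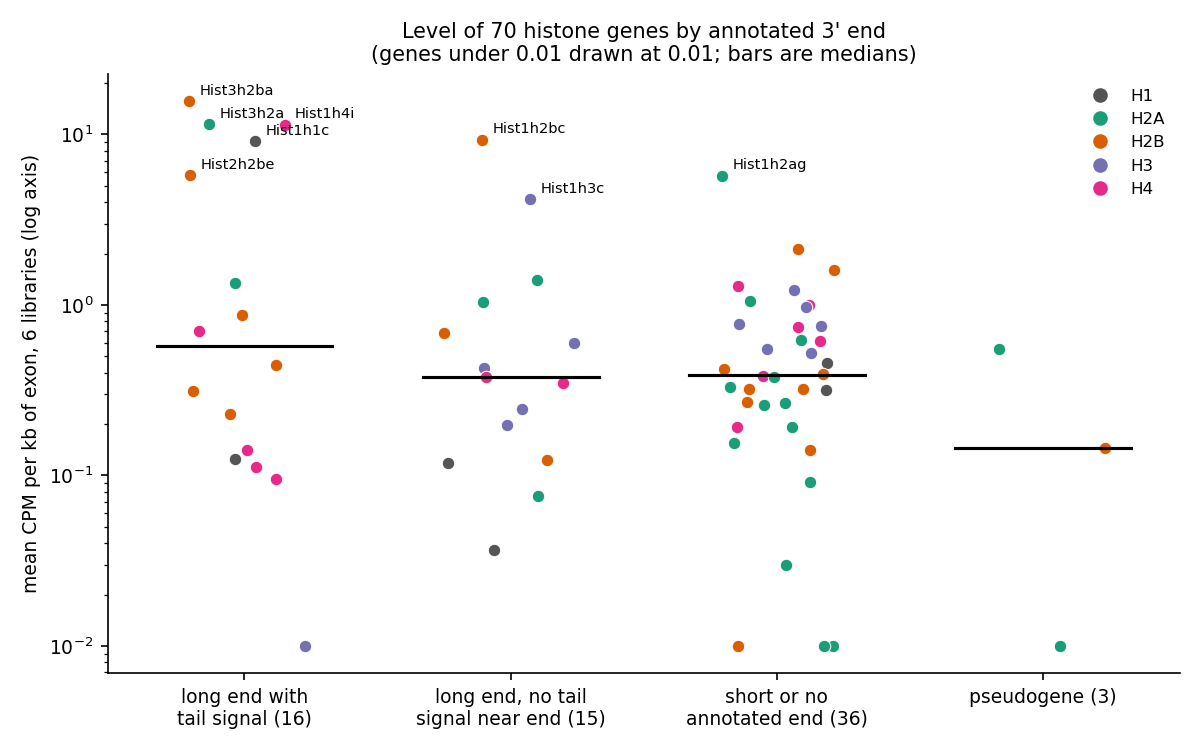
Level of the 70 histone genes as mean CPM per kb of exon over 6 libraries (log axis), in 4 sets by annotated 3′ end, with each point a gene coloured by histone and each bar a median. Hist3h2ba, at 15.7 CPM per kb, is the highest point, and 5 of the 8 named genes are in the set with a tail signal.

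Per kilobase, the order of levels in control libraries was led by Hist3h2ba at 12.1 ± 4.15 CPM per kb (SD, n = 3), Hist1h4i at 11.8 ± 0.587, Hist1h1c at 10.6 ± 0.971, Hist1h2bc at 10.3 ± 2.36 and Hist3h2a at 10.2 ± 1.63. These 5 lay within each other's spread. Hist2h2be (6.31 ± 0.366), Hist1h2ag (5.94 ± 0.124) and Hist1h3c (5.06 ± 0.644) formed the next step, of which the first pair lay within each other's spread, and Hist1h2bk (2.10 ± 0.120) and Hist1h2bj (1.68 ± 0.994) came below them. In deletion libraries Hist3h2ba was at 19.4 ± 1.37 and Hist3h2a at 12.8 ± 0.627 CPM per kb. Hist1h4i was at 11.05 ± 1.17, Hist1h2bc at 8.30 ± 0.142 and Hist1h1c at 7.71 ± 0.886 CPM per kb. These means were below those of both Hist3 genes, but Hist1h4i and Hist3h2a lay within each other's spread.

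Many of these genes share sequence, which limits what a single gene's count means. At the median, 49.6% of a histone gene's 50-base stretches also occurred in a transcript of another gene, and in 34 of 70 genes the share was over 50%. Only Hist1h1a, Hist1h1b, Hist1h1t and Hist2h2be shared none. Among genes named below, the share was 74.2% in Hist1h2bk, 59.4% in Hist1h2bj and 47.0% in Hist1h3c. It was 30.1% in Hist1h2bc, 28.9% in Hist1h4i, 22.1% in Hist3h2ba and 8.54% in Hist1h1c. Of the histone values above 0, 83.3% were not whole numbers, against 45.9% over all genes. The near-identical pair Hist2h2aa1 and Hist2h2aa2 shows how far the division can go. Hist2h2aa1 received 83.0, 0.421 and 15.2 counts in controls cont212, cont213 and cont220 while Hist2h2aa2 received 0.155, 69.5 and 27.8. In deletion libraries mut208, mut211 and mut221 the division was 18.9, 55.5 and 3.23 against 64.2, 21.8 and 28.2. The first gene's share ran from 0.602% to 99.8%, so neither gene can be read alone. Their sum (1.65, 1.41 and 0.945 CPM in control, and 1.66, 1.69 and 0.702 in deletion) overlapped between groups. That sum need not hold all the shared reads, since Gm20634 shares 89.4% of the stretches of Hist2h2aa1 and 100% of those of Hist2h2aa2.

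**Figure D2:**
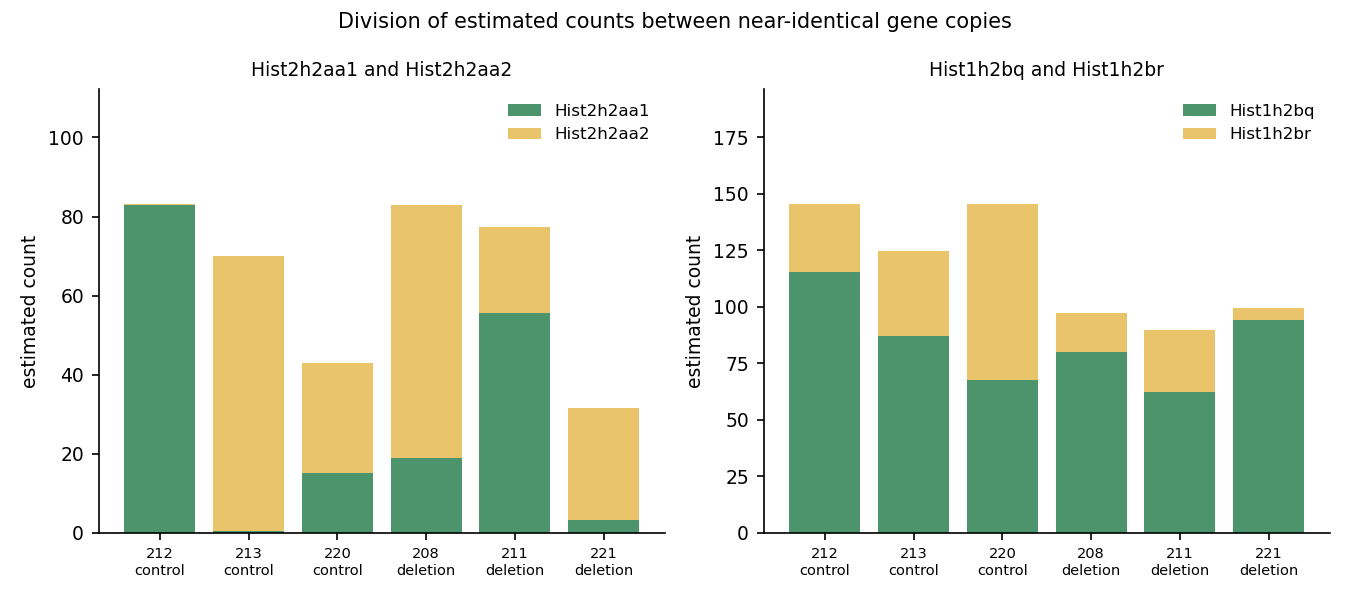
Estimated counts of 2 pairs of near-identical H2A and H2B genes in each library, stacked by gene. The division of Hist2h2aa1 and Hist2h2aa2 moves from 99.8% to 0.602% for the first gene between controls cont212 and cont213, while Hist1h2bq keeps 46.5% to 94.7% of its pair.

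Deletion and control were compared in 44 of the 70 genes. The other 26, of which 12 were H2A and 8 were H2B genes, fell under the filter on low counts. Among the 44, 1 gene was called lower, Hist1h1c, and 0 were called higher at an edgeR adjusted p under 0.05. Over all 19284 genes tested, 7.01% were called, 3.65% higher and 3.37% lower, so the histone share was not above the background. At an unadjusted edgeR p under 0.05 there were 7 of 44 histone genes (15.9%), 2 higher and 5 lower, against 22.5% of all genes. The libraries of the 2 groups did not overlap in 9 of 44 histone genes (20.5%), against 27.6% of all genes. DESeq2 called 2 higher and 2 lower, against 11.2% of all genes. The share of all genes called was 7.02% with DESeq2's size factors in edgeR, 7.3% with upper-quartile factors, 6.48% with voom, 6.29% with no filter on low counts and 8.17% with a filter at 1 CPM. It was 0.669% with sex as a covariate and 0.435% without the 2 male controls. Leaving out 1 library gave 4.78% (cont212), 1.81% (cont213), 7.04% (cont220), 2.77% (mut208), 3.59% (mut211) and 9.45% (mut221).

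The direction was uneven although few genes passed. The log2 fold change was below 0 in 33 of 44 histone genes (75%), against 50.04% of all genes tested. The 44 values are not independent, since many of these genes share sequence and can divide the same reads. Their median was -0.18, with quartiles of -0.42 and -0.00, against a median of -0.00 for all genes, and single values ran from -1.49 to 0.69. The typical SE was 0.45 for a histone gene and 0.11 over all genes, so most single values were within their error. The median was -0.34 with sex as a covariate and -0.34 without controls cont212 and cont213. By histone, values below 0 were found in 4 of 5 tested H1, 6 of 8 H2A, 8 of 11 H2B, 9 of 11 H3 and 6 of 9 H4 genes.

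**Figure D3:**
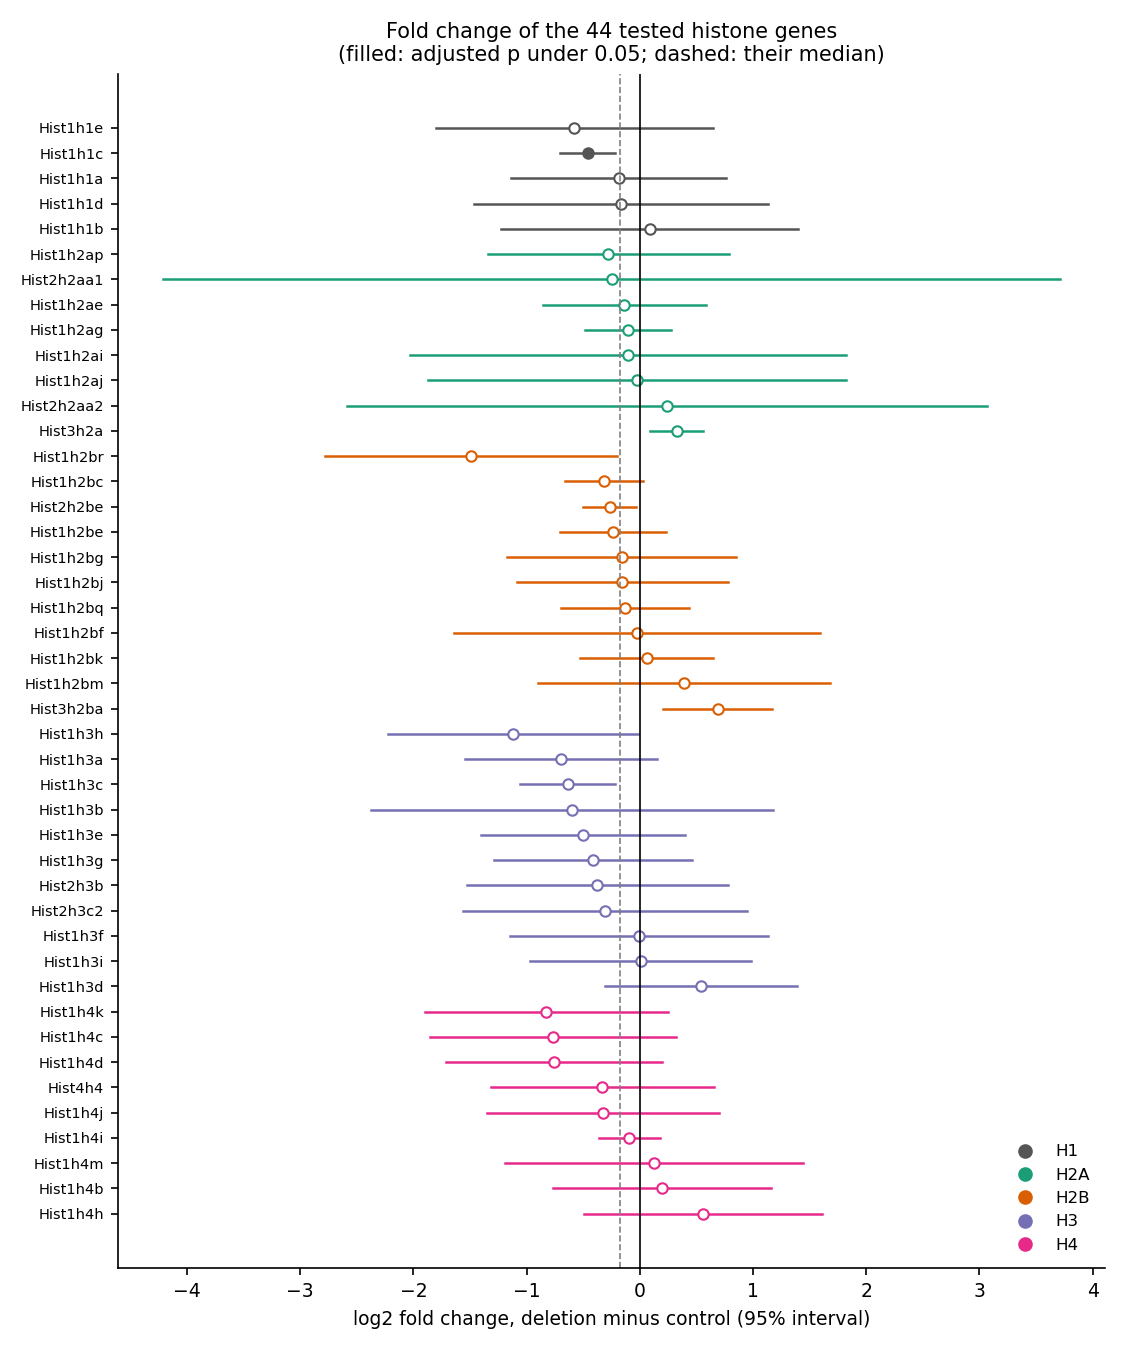
Log2 fold change (deletion minus control) of the 44 tested histone genes with 95% intervals, grouped and coloured by histone, filled where the edgeR adjusted p was under 0.05. Hist1h1c is the 1 filled point, the dashed line marks the median of -0.18, and most intervals cross 0.

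Among the clustered H1 genes, which encode linker histones that bind DNA between nucleosomes, Hist1h1c was the only one with substantial counts. The gene (chr13:23738808-23740367, 1 exon) was at 18.1, 15.1 and 16.4 CPM in controls cont212, cont213 and cont220 and at 12.0, 10.6 and 13.4 CPM in deletion libraries mut208, mut211 and mut221. Every deletion library lay below every control. Hist1h1c fell by 1.38-fold, or -0.46 ± 0.11 on the log2 scale (SE, adjusted p = 0.0312 in edgeR). The direction held under each of 14 alternatives, with log2 fold changes from -0.55 to -0.38, and the call held in 7 of them. The call was lost with sex as a covariate (edgeR adjusted p = 0.245), without controls cont212 and cont213 together (0.316), and without any one of cont212, cont213, cont220, mut208 or mut211 (0.0571 to 0.114). The other tested H1 genes, Hist1h1a, Hist1h1b, Hist1h1d and Hist1h1e, were under 0.5 CPM in every library.

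Among the clustered H2A genes, which encode a core histone that pairs with H2B, Hist3h2a took most of the counts. The gene (chr11:58954685-58956830, 1 exon) was at 26.0, 19.8 and 20.1 CPM in controls cont212, cont213 and cont220 and at 28.9, 27.3 and 26.3 CPM in deletion libraries mut208, mut211 and mut221. The groups did not overlap, and the highest control, cont212, lay just below the lowest deletion library. The log2 fold change was 0.33 ± 0.11 (SE, adjusted p = 0.0920 in edgeR) and passed with DESeq2 (adjusted p = 0.0456), without the low-count filter (0.0357) and without cont212 (0.46, adjusted p = 0.0150). Over its alternatives the adjusted p ran from 0.0150 to 0.312. Of its 50-base stretches 31.5% also lay in transcripts of Trim17, which overlaps it on the same strand. Trim17 was at 2.75 ± 0.964 CPM in control and 2.80 ± 0.489 in deletion libraries (SD, n = 3).

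Hist1h2ag, the next H2A gene by level, was at 2.94, 2.82 and 2.87 CPM in control and 2.51, 2.81 and 2.73 CPM in deletion libraries. The groups stopped just short of overlapping, and the log2 fold change of -0.11 ± 0.17 (SE, adjusted p = 0.776 in edgeR) was within its error. Hist1h2ag shares 78.9% of its stretches with other genes and has an antisense neighbour, and the sources used here do not state whether counting used strand.

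Among the clustered genes, H2B held the largest summed CPM of the 5 histones, and its members lay on both sides of 0. Hist3h2ba (chr11:58948920-58949533, 1 exon) was at 10.2, 5.25 and 6.73 CPM in controls cont212, cont213 and cont220 and at 12.3, 10.95 and 12.5 CPM in deletion libraries mut208, mut211 and mut221. Each deletion library exceeded each control, and cont212 was the nearest. Its log2 fold change of 0.69 ± 0.21 (SE, adjusted p = 0.0943 in edgeR) was the highest of the 44. It passed with DESeq2 (adjusted p = 0.00918) and without cont212 (0.99, adjusted p = 0.00632), and over its alternatives the adjusted p ran from 0.00632 to 0.336.

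Hist2h2be (chr3:96221119-96223738, 1 exon), whose sequence is shared with no other gene, was at 17.6, 16.3 and 15.7 CPM in control and 14.3, 11.9 and 15.05 CPM in deletion libraries. The groups did not overlap, and the log2 fold change was -0.27 ± 0.11 (SE, adjusted p = 0.159 in edgeR), with a call under none of 14 alternatives. Hist1h2bc was at 13.1, 13.9 and 8.82 CPM in control and 9.78, 9.52 and 9.48 CPM in deletion libraries. Its cont220, the sex-matched control, lay below all deletion libraries. Its log2 fold change of -0.31 ± 0.15 (SE, adjusted p = 0.263 in edgeR) was -0.49 without cont220 (adjusted p = 0.0243) and 0.12 with sex as a covariate or without controls cont212 and cont213. Hist1h2bk (0.06 ± 0.27) and Hist1h2bj (-0.16 ± 0.42, log2 fold change ± SE) lay within their errors, and over its 13 alternatives Hist1h2bj ran from -0.89 with sex as a covariate to 0.42 without cont220. Hist1h2br had the lowest log2 fold change of the 44, -1.49 ± 0.58 (SE, adjusted p = 0.161 in edgeR), but it divides its counts with Hist1h2bq. Its value was -0.91 without cont220 and -2.24 with sex as a covariate. Summed, Hist1h2bq and Hist1h2br were at 2.89, 2.52 and 3.20 CPM in control and 1.95, 1.97 and 2.22 CPM in deletion libraries, with no overlap.

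**Figure D4:**
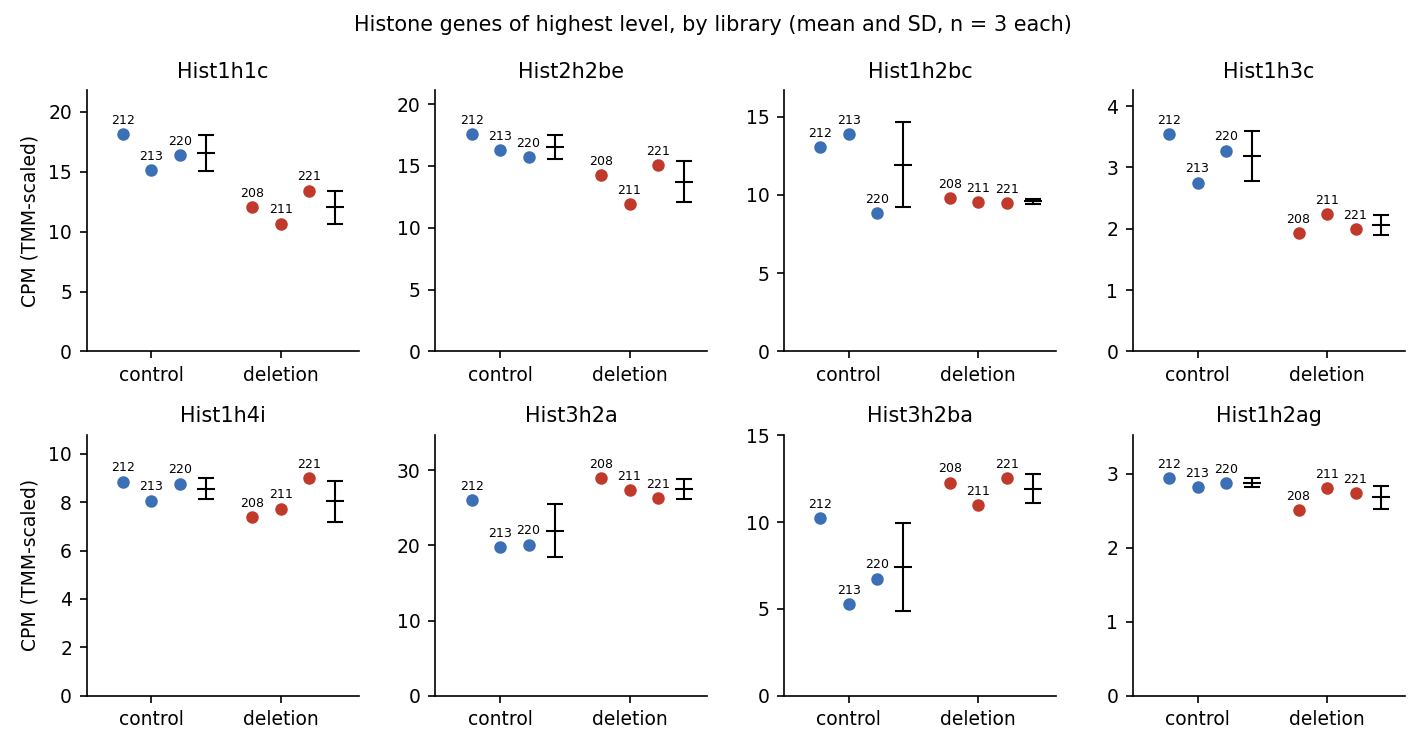
CPM of 8 histone genes in each library, with controls in blue, deletion libraries in red, library numbers beside the points, and the mean and SD (n = 3) as a bar beside each group. Hist1h1c and Hist1h3c lie lower in every deletion library, Hist3h2a and Hist3h2ba lie higher, and Hist1h2bc overlaps through cont220.

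The H3 genes, which encode the core histone that carries many lysine marks, had the lowest median of the 5 histones at -0.41 over 11 tested genes. In edgeR 0 of them were called and 2 had an unadjusted p under 0.05 (7.01% and 22.5% of all genes). DESeq2 called 1 of the 11, against 11.2% of all genes. Hist1h3c (chr13:23744973-23745602, 1 exon) was at 3.55, 2.75 and 3.27 CPM in controls cont212, cont213 and cont220 and at 1.93, 2.24 and 2.00 CPM in deletion libraries mut208, mut211 and mut221. All deletion libraries were below all controls, but the gene shares 47.0% of its stretches with other genes. The log2 fold change was -0.64 ± 0.19 (SE, adjusted p = 0.0710 in edgeR), and it was the gene that DESeq2 called (adjusted p = 0.0462), as did 0 of the other 13 alternatives. Hist1h3h, with 12.4 to 30.6 counts in control and 6.0 to 11.4 in deletion libraries, had a log2 fold change of -1.12 ± 0.50 (SE, adjusted p = 0.217 in edgeR) and shares 93.9% of its stretches. Its value was -0.74 without cont212 and -0.44 with sex as a covariate or without cont212 and cont213. Hist1h3d was at 0.54 ± 0.38 (SE, adjusted p = 0.460 in edgeR), with groups that did not overlap, and at 0.24 without mut221. Hist1h3d and the H2B gene Hist1h2be are named because they are among the 9 such genes, a choice made after their values were seen. Hist1h2be was at 1.99, 1.96 and 2.42 CPM in control and 1.62, 1.93 and 1.86 CPM in deletion libraries. Its log2 fold change was -0.24 ± 0.21 (SE, adjusted p = 0.574 in edgeR).

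Among the H4 genes, whose product carries the arginine that PRMT1 methylates, Hist1h4i was the one with substantial counts. It was at 8.84, 8.07 and 8.77 CPM in control and 7.37, 7.73 and 8.99 CPM in deletion libraries. The groups overlapped, and the log2 fold change was -0.09 ± 0.12 (SE, adjusted p = 0.723 in edgeR), with a 95% interval from -0.36 to 0.18. The other 8 tested H4 genes were under 1 CPM in every library. Of the 9 tested, 0 were called in edgeR or DESeq2 and 0 had an unadjusted p under 0.05.

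The clusters on different chromosomes differed in direction when their CPM were summed by library, which is given as a description with no test. The 56 Hist1 genes summed to 65.1, 59.8 and 63.4 CPM in controls cont212, cont213 and cont220 and to 49.99, 48.3 and 54.4 CPM in deletion libraries mut208, mut211 and mut221. Every deletion library was lower, and the ratio of means was 0.811. Without Hist1h1c the other 55 genes still summed to 44.7 to 47.1 CPM in control and 37.7 to 41.0 CPM in deletion libraries. The sex-matched cont220 was at 63.4 and 47.1 CPM in these sums, above every deletion library.

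The 10 Hist2 genes summed to 17.4 to 19.95 CPM in control and 14.4 to 16.6 CPM in deletion libraries. This difference lay in Hist2h2be, since the other 9 genes summed to 1.73 to 2.37 CPM and 1.41 to 2.52 CPM. The 3 Hist3 genes summed to 36.2, 25.1 and 27.0 CPM in control and to 41.3, 38.3 and 38.9 CPM in deletion libraries, a ratio of 1.34. Hist3h2a and Hist3h2ba make up nearly all of it. The total over all 70 genes overlapped between the groups (111 ± 9.29 CPM in control, 106 ± 4.68 in deletion, SD, n = 3).

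By histone, H1 summed to 17.8 ± 1.64 CPM in control and 13.2 ± 1.70 in deletion libraries, and H3 to 7.53 ± 0.662 and 5.50 ± 0.432 (SD, n = 3), both with no overlap. Hist1h1c alone held 16.5 and 12.0 CPM of the H1 means, so the H1 sum largely repeats that gene. Hist1h3c held 3.19 and 2.06 CPM of the H3 means. H2A was at 29.2 ± 3.85 and 34.2 ± 1.52 CPM with overlap. That difference turned to -0.65 CPM without Hist3h2a. H2B was at 44.4 ± 3.82 and 42.5 ± 2.99 CPM, and H4 at 12.3 ± 0.755 and 11.2 ± 0.675 CPM, both with overlap. The 64 genes other than the 6 with the most counts, a set chosen after the values were seen, summed to 25.4 to 31.7 CPM in control and 23.1 to 24.4 CPM in deletion libraries.

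**Figure D5:**
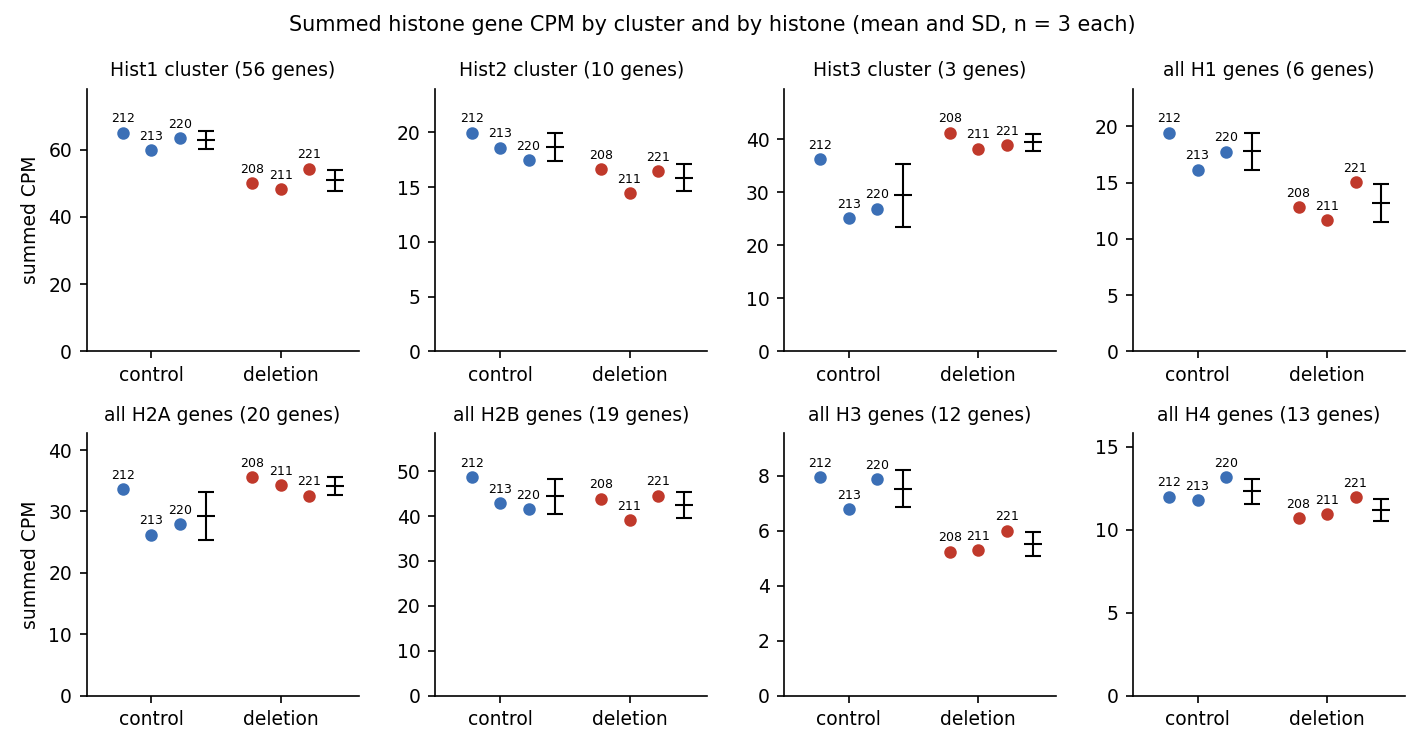
Summed CPM by library for the 3 larger clusters and the 5 histones, with controls in blue, deletion libraries in red, and the mean and SD (n = 3) as a bar beside each group. The Hist1 sum is 59.8 to 65.1 in control and 48.3 to 54.4 in deletion libraries, while the Hist3 sum is higher in each deletion library than in each control.

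The genes that make and process histone mRNA were set beside these values. Of 26 listed, 25 were tested, 1 was called higher and 0 lower, against 7.01% of all genes called. An unadjusted edgeR p under 0.05 was found in 5 of the 25, against 22.5% of all genes. DESeq2 called 2, against 11.2% of all genes, and the median of the 25 was -0.00 on the log2 scale. The 1 call was Coil, which encodes coilin of the Cajal body, at 29.2 to 31.1 CPM in control and 34.3 to 37.9 CPM in deletion libraries (log2 fold change 0.26 ± 0.07, SE, adjusted p = 0.0424 in edgeR). The Coil call held under 7 of 14 alternatives, and was lost with sex as a covariate, without cont212 and cont213 together, and without any one of cont212, cont213, mut208, mut211 or mut221 (adjusted p from 0.0789 to 0.470). Slbp was at 104 to 112 CPM in control and 107 to 118 CPM in deletion libraries, with a log2 fold change of 0.05 ± 0.05 (SE, adjusted p = 0.629 in edgeR). Npat was at 62.1 to 65.0 and 57.8 to 74.0 CPM (0.07 ± 0.08, SE, adjusted p = 0.693 in edgeR). The U7 RNA gene Rnu7 was listed at 0, which in poly(A) libraries does not show that U7 RNA was absent.

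S phase genes were examined because the histone genes are transcribed in that phase. Against 7.01% of all genes in edgeR and 11.2% in DESeq2, 0 of the 28 tested S phase genes were called. Against 22.5% of all genes, 5 of the 28 had an unadjusted edgeR p under 0.05. Their median was 0.01 on the log2 scale, and the smallest p were those of Cdc6, a licensing factor (0.21 ± 0.08, SE, adjusted p = 0.144 in edgeR, and 0.0374 without mut221), and Pola1, a polymerase subunit (-0.19 ± 0.07, SE, adjusted p = 0.151 in edgeR). The 28 genes summed to 2387, 2392 and 2660 CPM in control and 2488, 2507 and 2537 CPM in deletion libraries, which overlap.

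Variant histones are encoded outside the clusters, and most have ordinary tailed mRNAs and are made through the cell cycle. Of 15 listed, 11 were tested and 1 was called lower, against 7.01% of all genes called. An unadjusted edgeR p under 0.05 was found in 4 of the 11, against 22.5% of all genes, and DESeq2 called 1, against 11.2%. The call was H2afv, which encodes an H2A.Z protein, at 81.9 to 90.2 CPM in control and 47.2 to 57.1 CPM in deletion libraries (log2 fold change -0.78 ± 0.08, SE, adjusted p = 0.000457 in edgeR). It was called under 14 of 14 alternatives. A widely used Wnt1-Cre transgene is known to sit in the H2afv locus, and the labels do not say which Wnt1-Cre line was used. Only the deletion libraries carry Cre, so for H2afv the transgene and the loss of Prmt1 cannot be told apart. H2afx, whose mRNA also carries the stem-loop motif, was at 155, 188 and 198 CPM in control and 201, 201 and 232 CPM in deletion libraries (0.23 ± 0.09, SE, adjusted p = 0.192 in edgeR). H1f0, the linker variant of cells that leave the cycle, was at 437 to 521 and 419 to 506 CPM (-0.10 ± 0.09, SE, adjusted p = 0.541 in edgeR). Of 24 histone chaperones, 0 were called higher and 1 lower, against 7.01% of all genes. An unadjusted edgeR p under 0.05 was found in 4 of the 24 (22.5% of all genes), and DESeq2 called 2 (11.2% of all genes). The call was Asf1b, which hands H3 and H4 to the replication fork, at 25.3 to 27.5 and 19.5 to 22.4 CPM (-0.35 ± 0.08, SE, adjusted p = 0.0251 in edgeR). The Asf1b call held under 9 of 14 alternatives, and was lost with sex as a covariate, without cont212 and cont213 together, and without any one of cont212, cont213 or mut208 (adjusted p from 0.0798 to 0.324).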

How the data were processed

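The authors deposited 1 table of estimated counts per gene for 6 poly(A) RNA-seq libraries. The submitters' processing notes name CASAVA 1.8.2, Partek, STAR 2.4.1d and the build mm10. Which tool counted, and whether by strand, is not given in the sources used here. For count tests, the deposited estimated counts were rounded. edgeR 4.0.16 in R 4.3.3 was fitted to the whole table (filterByExpr with a minimum count of 10 and total of 15, TMM, robust quasi-likelihood F test, Benjamini-Hochberg over all tested genes, threshold 0.05) and checked on simulated data. That check changed genes drawn at random from all tested genes and did not measure power for the histone genes. CPM used unrounded counts. DESeq2 1.42.0 and limma 3.58.1 (voom) served as alternatives, with other scalings, filters, a sex covariate and each library left out.

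Gene models came from GENCODE M21, promoters from RefSeq. Named genes were the calls, the 10 highest per kilobase, the 8 of smallest p, those whose call changed under an alternative, Prmt1, and the calls of the other lists (otherwise the 2 of smallest p). Slbp, Npat, H2afx and H1f0 are named for their roles. Members and lists were chosen with earlier results of these data known. Columns name a group but no labelled sample. Replicates differed beyond counting noise (chi-square over its degrees of freedom, 7.41 to 35.2).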

Additional observations from a re-analysis of the deposited data

How the results depend on the processing

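The count of histone genes called higher was 0, but 2 with DESeq2, 1 with no filter on low counts, and 0 to 2 when 1 library was left out; the 2 without cont212 were Hist3h2a and Hist3h2ba. The count called lower was 1, but 2 with DESeq2, 0 with sex as a covariate, 0 without the 2 male controls cont212 and cont213 (an alternative chosen after seeing the data), and 0 to 1 when 1 library was left out. The 1 gene without cont220 was Hist1h2bc. The median log2 fold change of the tested genes was -0.34 with sex as a covariate, -0.34 without the male controls, and -0.33 to -0.12 over the libraries left out (-0.28 without cont212, -0.31 without mut221, -0.33 without cont213). All genes called fell from 7.01% to 0.669% with sex as a covariate and to 0.435% without the male controls. Directions turned for Hist1h2bj with voom (0.0181) and without cont220 (0.42, the range over single libraries left out being -0.44 to 0.42; the value was -0.89 with sex as a covariate or without the male controls), for Hist1h2bc with sex as a covariate (0.12) and without the male controls (0.12), and for Hist1h2bk in the same settings (-0.0203 and -0.0181), and for Npat without mut211 (-0.0163). The summed level of all genes differed by -4.74 CPM, -4.77 with DESeq2 size factors and -10.3 without Hist3h2a. The causes were not tested. No paired analysis was possible because the columns carry none of the labels' replicate numbers. The median SE on the log2 scale was 0.45 over the 44 tested, against 0.11 over all genes, and 26 genes were too low to test; the parts of depth and of shared sequence in these errors were not tested.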
